A study of Oryza sativa with 6 samples.

Results

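NAC proteins are a plant family of transcription factors with a conserved DNA-binding domain at the amino end and a variable activating region at the carboxyl end. In rice leaves several of them are switched on by drought, salt, cold or abscisic acid, and others act in development, leaf senescence and cell death. The genes ONAC004, ONAC068 and NAC45 of this family were followed here across salt treatment of seedlings with and without an antisense construct. The members were taken as every probe set with 1 gene whose symbol or synonyms in the reference gene table include one of these names. This gave 3 genes with 1 probe set each, of 57258 rice probe sets on the array. The names came from an earlier reading of these data, in which ONAC004 and ONAC068 had the largest changes of the NAC genes at 20 min. The members are therefore treated as selected on their changes in NaCl and their genotype differences on these 6 arrays, and their values are a description, with no test.

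Leaf RNA of rice seedlings aged 2 weeks was measured on the arrays. One set of seedlings was nontransgenic Zhonghua 11, a japonica cultivar, and the other was Zhonghua 11 carrying antisense-OsPDCD5, a construct against a gene named for programmed cell death. Seedlings of each genotype grew on half-strength Murashige and Skoog medium, and leaves were taken either without salt or once the seedlings had spent 20 min or 3 h on this medium with 200 mM NaCl. These 6 groups had a single array apiece, from 10 plants, and no replicates, so no spread between replicates of a condition could be measured. The promoter of the construct and the number of transgenic lines are not stated in the labels, and the signal of OsPDCD5 was not analysed here. No group was moved to new dishes without salt or kept untreated to the later times, so a change in NaCl includes the transfer and the time passed. A difference between the genotypes includes any other lasting difference between these sets of seedlings.

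Values are linear MAS5 signals, the brightness of a probe set after the scaling of each array to a common mean. Differences are on the scale of log2(signal + 16), which shrinks changes of signals near 16. Array medians over all rice probe sets ran from 30.7 to 38.9. The summed signal of the 4 leaf marker genes measured, from 7 names listed, lay between 70761 and 98522. They were CAB2R, GLN2, RBCS (the small subunit of Rubisco) and another RBCS gene below the filter on low signals, at 1.68 to 27.6. For the 3 root markers measured (of 6 listed) the sum lay between 541 and 1128, most of it from LSI1 (537 to 1101). LSI2 was at most 1.53 on any array.

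ONAC004 (LOC4336052, on chromosome 4) is also known as OsNAC2 and OsTIL1. In rice its overexpression alters tillering, and it has been tied to leaf senescence and to cell death under salt. In nontransgenic leaves its signal was 99.1 before treatment, 217 at 20 min and 115 at 3 h. In antisense-OsPDCD5 leaves it was 50.2 before treatment, 97.4 at 20 min and 108 at 3 h. The nontransgenic array at 20 min was thus the highest and the antisense array before treatment the lowest, and the arrays of the 2 genotypes overlapped.

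At 20 min ONAC004 was higher by 1.02 on the log2 scale in nontransgenic leaves and by 0.78 in antisense leaves, a mean of 0.90 (SD 0.17 over the 2 pairs of arrays). The nontransgenic change alone passed 2-fold, as it did for 4.92% of probe sets in that pair. It passed narrowly, and neither genotype passed under some other settings. The higher of the 2 changes was 0.91 with quantile normalization, 0.97 with equal 75th percentiles and 0.79 with 64 added. Of all 28629 probe sets past the filter on low signals, 3.95% had a mean change at least as high. The median over all of them was 0.01. At 3 h the changes from before treatment stood apart between the genotypes, while the signals were close (115 in nontransgenic and 108 in antisense leaves). The log2 difference from before treatment was 0.18 in nontransgenic leaves, where the signal had come back near its first level. In antisense leaves it was 0.91, and the signal was not lower at 3 h than at 20 min. That change also starts from a lower signal before treatment, 50.2 against 99.1 in nontransgenic leaves. The antisense response exceeded the nontransgenic one by 0.73 at 3 h and fell short of it by 0.24 at 20 min. A difference of 0.73 or more in either direction was found for 22.2% of the probe sets, so it is not unusual on these arrays, and the design allows no test of it.

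Between the genotypes, ONAC004 was lower in antisense leaves by log2 differences of -0.80 before treatment, -1.04 at 20 min and -0.07 at 3 h. As a ratio of signals, nontransgenic leaves had 1.97 times the antisense level before treatment, 2.23 times at 20 min and 1.06 times at 3 h. At 3 h the sign depended on the scaling, since with quantile normalization that difference was 0.01.

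**Figure D1:**
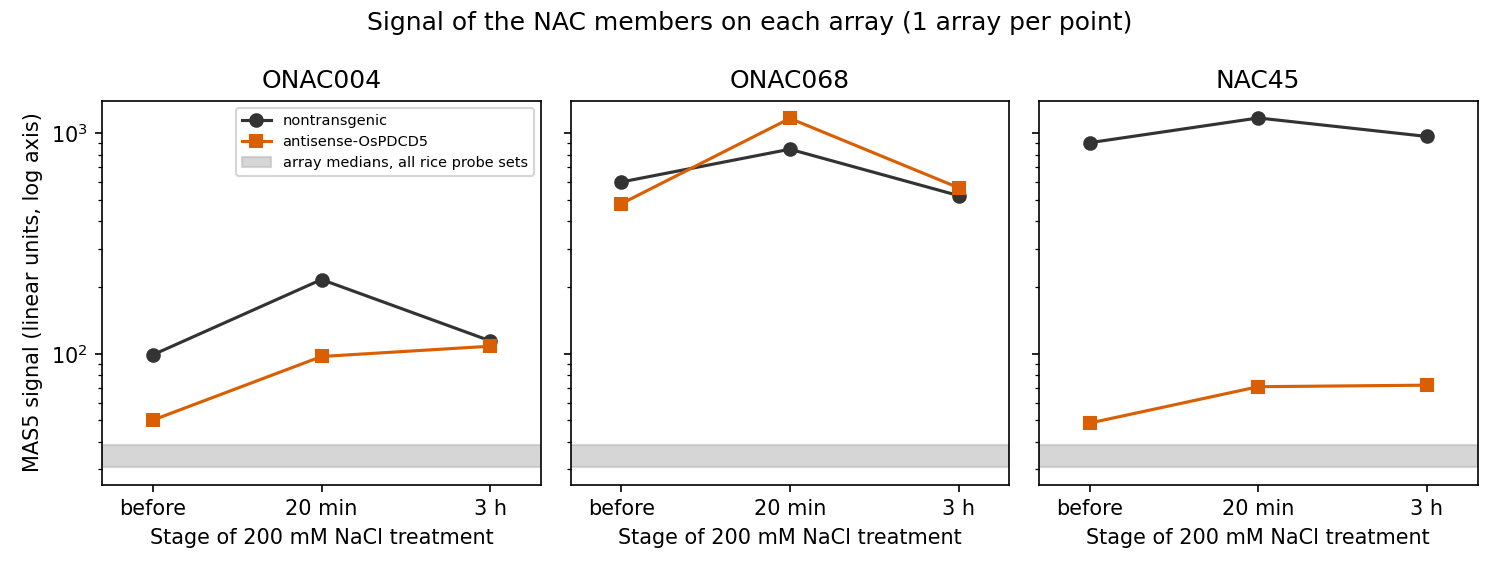
MAS5 signal (linear units on a log axis) of ONAC004, ONAC068 and NAC45 against the stage of NaCl treatment, with 1 array per point and a grey band for the range of the array medians of all rice probe sets. NAC45 sits between 905 and 1172 on the nontransgenic arrays and between 48.6 and 72.2 on the antisense arrays, and ONAC004 and ONAC068 have overlapping genotypes.

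ONAC068 (LOC4327485, on chromosome 1) is also known as OsNAC4, a factor that triggers hypersensitive cell death in rice during pathogen recognition. Its signal in nontransgenic leaves was 601 before treatment, 846 at 20 min and 521 at 3 h. In antisense leaves it was 479 before treatment, 1166 at 20 min and 566 at 3 h. Both genotypes had their highest value at 20 min and were back near the first level at 3 h.

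The log2 change of ONAC068 at 20 min was 0.48 in nontransgenic and 1.26 in antisense leaves, with a mean of 0.87 (SD 0.55 over the 2 pairs). A mean change at least as high was found for 4.23% of the probe sets. The antisense change alone passed 2-fold, a rule that 4.19% of probe sets met in that pair. The response of antisense leaves was larger by 0.77, a difference that 15.9% of probe sets reached in one direction or the other. From 20 min to 3 h the log2 difference was -0.68 in nontransgenic and -1.02 in antisense leaves. Compared with before treatment, the values at 3 h were -0.20 and 0.23, and their mean of 0.017 turned negative under 3 other scalings, so ONAC068 had no settled direction at 3 h.

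The genotypes were close for ONAC068. The log2 difference of antisense minus nontransgenic leaves was -0.32 before treatment, 0.46 at 20 min and 0.11 at 3 h, with both signs among the 3 stages. The mean was 0.08 (SD 0.39 over the 3 stages), and -0.0090 when the arrays were scaled to the hybridisation spike-ins.

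NAC45 (LOC4349650, on chromosome 11) is also known as ONAC045, a gene induced by salt, drought, cold and abscisic acid in rice, whose overexpression raised tolerance to drought and salt. Its signal in nontransgenic leaves was 905 before treatment, 1172 at 20 min and 966 at 3 h. In antisense leaves it was 48.6 before treatment, 71.1 at 20 min and 72.2 at 3 h. Every antisense array was far below every nontransgenic array, with no overlap. RNA came from whole leaves, so fewer cells with the transcript and less of it per cell cannot be told apart.

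As a ratio of signals, nontransgenic leaves had 18.6 times the NAC45 level of antisense leaves before treatment, 16.5 times at 20 min and 13.4 times at 3 h. On the log2 scale the differences were -3.83, -3.77 and -3.48, a mean of -3.69 (SD 0.19 over the 3 stages). The antisense signals were 1.36 to 2.25 times the median of their arrays and not far above the added 16, so the size of the difference depends on that number. It was -3.98 with 1 added and -3.07 with 64 added. A mean difference at least as low was found for 127 of 28629 probe sets, 0.444%. At least 8-fold lower signals in antisense leaves at all 3 stages were found for 135 probe sets (0.472%), and at least 8-fold higher ones for 0.353%. NAC45 was the one member at least 2-fold lower at every stage, a rule met by 3.19% of all probe sets. It was also the one member whose arrays did not overlap between the genotypes, as for 14.6% of probe sets in that direction.

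**Figure D2:**
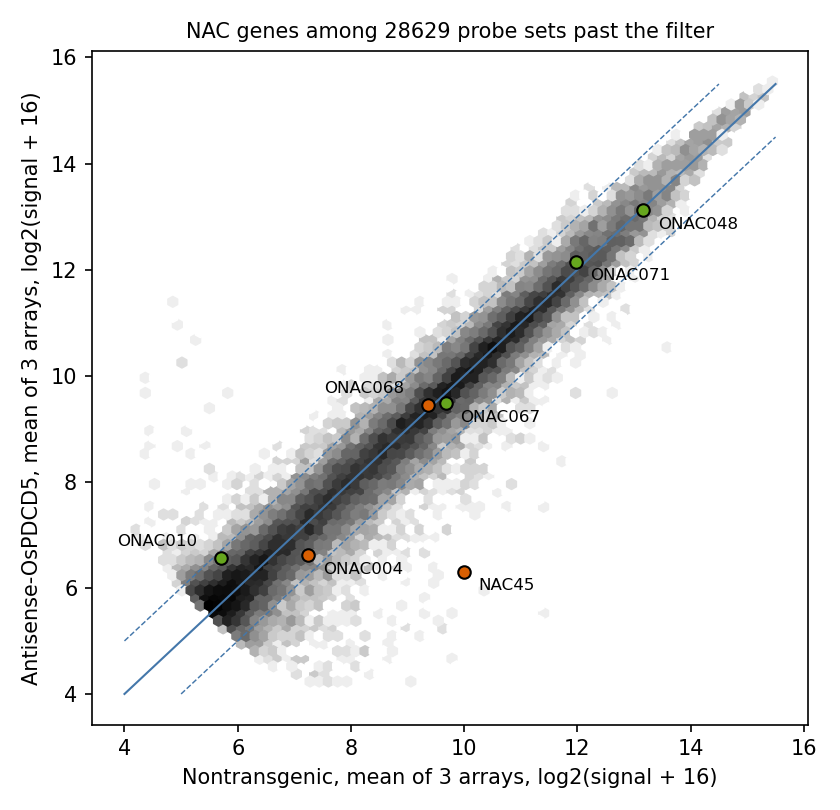
Mean log2(signal + 16) over the 3 antisense-OsPDCD5 arrays against the mean over the 3 nontransgenic arrays, for 28629 probe sets in grey bins (darker for more), the members in orange and other NAC genes in green. The solid line marks equal values and the dashed lines 2-fold differences. NAC45 lies far below the lower dashed line, while ONAC004 and ONAC068 lie between the dashed lines.

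The changes of NAC45 in NaCl were much smaller than its genotype difference. At 20 min the log2 change was 0.37 in nontransgenic and 0.43 in antisense leaves, a mean of 0.40 (SD 0.04 over the 2 pairs), which 4460 of the 28629 probe sets reached. At 3 h it was 0.09 in nontransgenic and 0.45 in antisense leaves, a mean of 0.27, which 26.8% reached. The responses of the genotypes differed by 0.06 at 20 min and by 0.36 at 3 h, and 87.3% and 49.1% of the probe sets had differences at least as large. The sign of the difference at 20 min depended on the number added. With 1 added the changes were 0.37 in nontransgenic and 0.54 in antisense leaves, and with 64 added 0.35 and 0.26. In order of level, the 20 min nontransgenic array came first, then 3 h, before treatment, and the antisense arrays at 3 h, 20 min and before treatment. The deviations of the 6 arrays from an additive pattern of genotype and stage had an SD of 0.13 for NAC45, 0.27 for ONAC068 and 0.36 for ONAC004. The 3 h and 20 min antisense values of NAC45, 0.02 apart on the log2 scale, are closer than that, as are the nontransgenic values at 3 h and before treatment. For ONAC004, the 4 arrays between 97.4 and 115 lie within its SD of each other. For ONAC068 the 4 arrays from 479 to 601 each lie within its SD of the next. The members were selected on their changes, so their 20 min changes are not judged by these SDs, which measure no replicate spread.

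Genes next to NAC45 on the chromosome did not share the size of its difference. Among 10 protein-coding genes to each side in the reference annotation, 6 had a probe set past the filter, with mean log2 genotype differences between -1.43 and 0.71 and a median of -0.26. The nearest measured gene, LOC4349651, directly next to NAC45, had its highest signal, 8176, and its lowest, 6217, both in nontransgenic leaves, and a mean difference of -0.11. LOC4349644, 6 genes to the other side, had the lowest mean difference of the 6, at -1.11, -1.56 and -1.64 over the stages. Before treatment MIF1, 5 genes from NAC45, was lower still, at -1.28. Around ONAC068 the 10 measured neighbours had mean log2 changes at 20 min between -0.77 and 0.93, and around ONAC004 the 11 measured neighbours between -0.28 and 0.40. ONAC004 at 0.90 was above all of its measured neighbours, and LOC4327479 at 0.93 was the one neighbour of ONAC068 above it. NAC077 on chromosome 12, the family gene also called ONAC300, had no probe set with 1 gene. Whether other transcripts add to the signal of NAC45 was not tested.

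**Figure D3:**
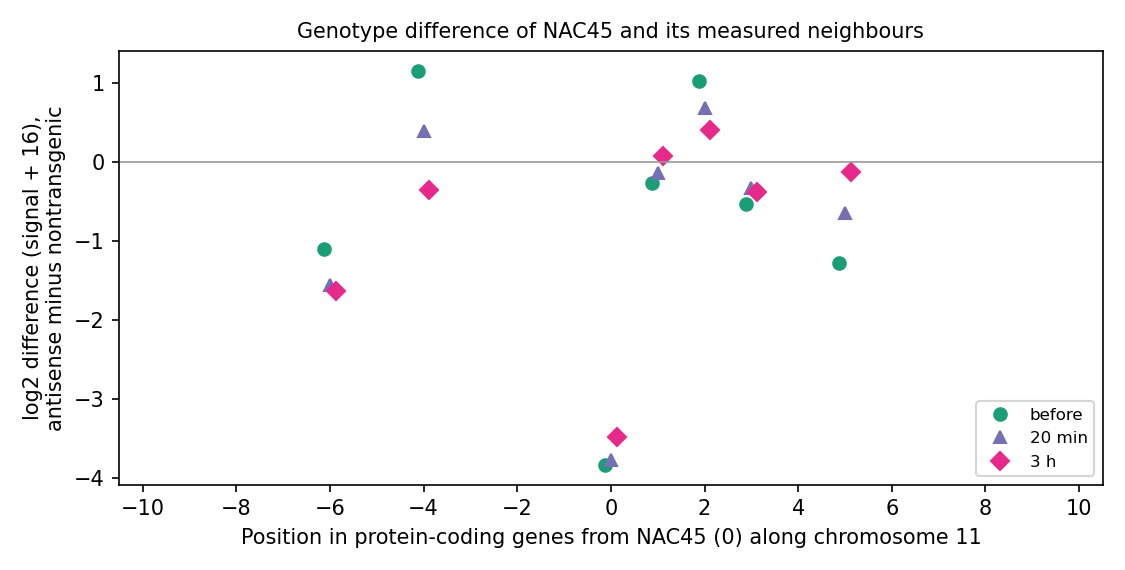
Log2 difference of antisense minus nontransgenic leaves at each stage (circles before treatment, triangles 20 min, diamonds 3 h) for NAC45 at 0 and its measured neighbours, placed by their order among protein-coding genes on chromosome 11. NAC45 lies between -3.83 and -3.48, and the neighbour with the lowest mean between -1.64 and -1.11.

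The genes with a curated name whose levels ran most like each member were ranked by Pearson's r over the 6 arrays, among 2067 genes. These values are a description, since the 6 arrays share their scaling and a match over so few points is easily reached. For NAC45, 79 genes had r above 0.95, as its pattern is mostly a step between genotypes. The first 5 were ARP9, an actin-related protein gene (r = 0.994), CYP714C2, a cytochrome P450 gene (0.994), OsPP2C01, a protein phosphatase gene (0.993), RPS21, a ribosomal protein gene (0.991), and FOR1, which encodes a leucine-rich repeat protein (0.991). Their mean log2 genotype differences were -2.03, -2.13, -1.24, -0.31 and -2.52, all smaller in size than that of NAC45.

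For ONAC068, 5 genes had r above 0.95. They were 6PGDH2, of the pentose phosphate pathway (0.969), the expansin gene EXPB7 (0.965), OsPMEI28, of the pectin methylesterase inhibitor family (0.960), AOS, the allene oxide synthase gene of jasmonate synthesis (0.952), and the cold and salt factor gene DREB1B (0.950). AOS had a signal of 238 before treatment, 850 at 20 min and 261 at 3 h in nontransgenic leaves, and 186, 1107 and 186 in antisense leaves. DREB1B went from 373 to 1091 and 165 in nontransgenic leaves, and from 84.7 to 2432 and 81.3 in antisense leaves. Both were picked for a pattern like that of ONAC068, and as in that gene the peak was at 20 min and higher in antisense leaves. Their mean log2 changes of 2.12 and 3.06 exceeded the 0.87 of ONAC068.

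For ONAC004, 5 genes had r above 0.95. They were CERK1, the chitin receptor kinase gene (0.970), ACLA-3, a subunit gene of ATP-citrate lyase (0.964), 4CL4, of phenylpropanoid synthesis (0.962), GINT1 (0.961) and the cellulose synthase-like gene CSLC9 (0.958). In antisense leaves 4CL4 had a signal of 2408 before treatment, 3738 at 20 min and 4673 at 3 h, still higher at the last stage. In nontransgenic leaves it had 4148, 6235 and 4810, with its peak at 20 min. The members themselves ran differently from each other, with r of 0.44 between ONAC004 and ONAC068, 0.68 between ONAC004 and NAC45 and -0.03 between ONAC068 and NAC45.

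The wider family was taken as genes whose symbol or synonym in the reference gene table was NAC, ONAC or SNAC plus a number. NAC genes without such a name were not looked for, so the counts do not cover the whole family. The name rule gave 10 genes, of which 8 had a probe set with 1 gene and 7 passed the filter. Besides the members these were ONAC048, ONAC071, ONAC067 and ONAC010, while ONAC076, with signals of 1.47 to 33.8 on its brighter probe set, did not pass. The additive limma fit takes deviations of single arrays from the sum of genotype and stage as its error and measures no replicate spread. Its tests are read here for these 4 other genes and not for the members. At 20 min the fit called 0 of the 4, where 0.947% of all probe sets were called. At an unadjusted p under 0.05 it had 2 of the 4, ONAC048 and ONAC071, against 12% of all probe sets, and 0 were at least 2-fold higher in both genotypes, a rule met by 1.49% of all. At 3 h it called 1 of the 4, ONAC048, higher (3.44% of all probe sets were called higher). By genotype it called 0 of the 4 higher or lower (9.94% and 10.6% of all), and 1, ONAC010, had an unadjusted p under 0.05, against 34.5% of all. These counts read each gene through its brightest probe set. A second probe set of ONAC071 had an unadjusted limma p of 0.0150 by genotype (adjusted p = 0.0644) and of 0.156 at 20 min. The third had an unadjusted limma p of 0.122 by genotype and of 0.230 at 20 min.

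ONAC048, also known as OsNAC6 and SNAC2, is a stress-inducible factor that raises salt and cold tolerance when overexpressed in rice. Its signal was 6796 before treatment, 10235 at 20 min and 11105 at 3 h in nontransgenic leaves. In antisense leaves it was 7226, 10068 and 9688. The arrays in NaCl were above those before treatment in both genotypes, with a log2 change of 0.53 ± 0.12 (SE of the limma fit, adjusted p = 0.132) at 20 min and 0.56 ± 0.12 (adjusted p = 0.0489) at 3 h. The call at 3 h was lost under 13 of the 15 alternatives, with each array left out in turn among them, so it rests on the exact settings. The genotype difference of ONAC048 was -0.04 ± 0.10 (limma adjusted p = 0.797).

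ONAC071, also known as OsNAC5, a factor induced by salt, drought and abscisic acid in rice, had signals of 3112, 4479 and 4587 in nontransgenic leaves. In antisense leaves it had 3989 before treatment, 5573 at 20 min and 4197 at 3 h. Its change at 20 min was 0.52 and 0.48 in the 2 genotypes (mean 0.50 ± 0.15, limma adjusted p = 0.264), and at 3 h 0.56 and 0.07 (mean 0.32 ± 0.15, adjusted p = 0.294). On this probe set, the brightest of 3, the response difference at 3 h (antisense minus nontransgenic) was -0.48, and on the other probe sets it was -0.25 and -0.20, where the antisense changes were 0.35 and 0.22. At 20 min the other probe sets had changes of 0.16 and -0.07 in nontransgenic leaves and of 0.59 and 0.83 in antisense leaves. They thus did not repeat the similar changes of the 2 genotypes on the brightest probe set. These differences between the genotypes could not be tested.

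ONAC067, also known as OsNAC3, had signals of 910, 841 and 673 in nontransgenic and 599, 952 and 607 in antisense leaves. At 20 min it was thus lower than before treatment in one genotype, at -0.11, and higher in the other, at 0.66. ONAC010 had 39.2, 21.7 and 52.1 in nontransgenic and 61.4, 61.1 and 125 in antisense leaves. Its genotype difference had the same sign at all 3 stages, at 0.49, 1.03 and 1.05. The mean of 0.86 ± 0.28 did not pass the limma fit (adjusted p = 0.0796). ONAC010 signals, from 21.7 to 125, were not far above 16, so this size depends on the number added. Of the 4 other NAC genes, it alone kept 1 sign on the brightest probe set. A second probe set of ONAC071 was lower in antisense leaves at all 3 stages, at -0.68, -0.25 and -0.93 (limma adjusted p = 0.0644). The third had both signs, at -0.66, 0.25 and -0.85 (limma adjusted p = 0.264). ONAC067, named here after its values were seen, had no limma adjusted p under 0.490.

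**Figure D4:**
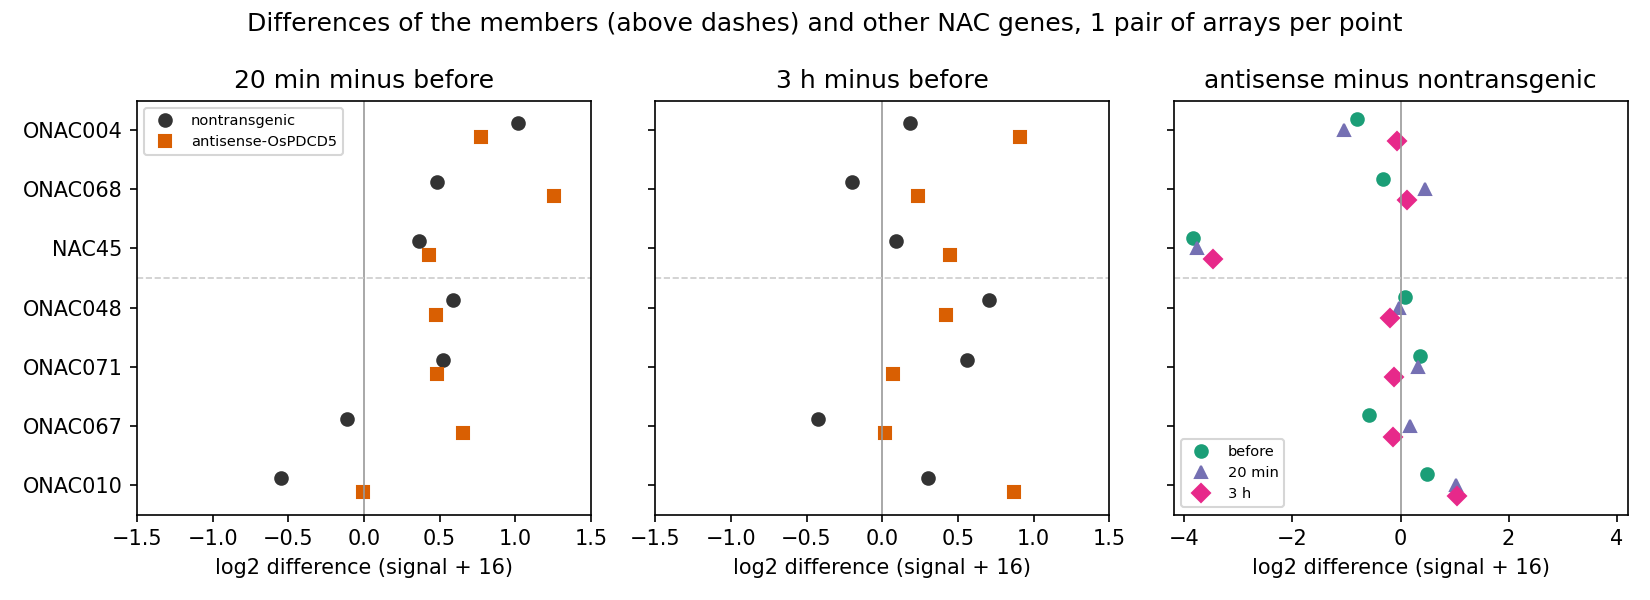
Log2 differences on the scale of signal + 16 for the members (above the dashed line) and the 4 other NAC genes past the filter, with 1 pair of arrays per point: 20 min minus before and 3 h minus before in each genotype (circles nontransgenic, squares antisense-OsPDCD5), and antisense minus nontransgenic at each stage. The genotype axis is wider, and NAC45 lies apart from the other genes there, between -3.83 and -3.48.

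Genes that rice work has linked to NAC factors were read beside the members. Of 12 names listed, 8 were measured and past the filter. They were the late embryogenesis abundant gene LEA3 and the plasma membrane gene PM1, both raised by ONAC045 overexpression, the dehydrin gene RAB21, the chaperone gene HSP90, and the chlorophyll breakdown genes SGR, NYC1, NOL and RCCR1. At 3 h limma called 4 of the 8 higher and 0 lower, where it called 3.44% and 2.58% of all probe sets. The median change of the 8 was 1.15 against 0.01 over all. The list was chosen with earlier results of these data known, so these comparisons are a description and no test of the list. At 20 min 0 of 8 were called either way by limma with 3 at an unadjusted p under 0.05 (RAB21, SGR and RCCR1, all with lower means; 12% of all probe sets had such a p), 0 were at least 2-fold higher or lower in both genotypes (0.458% of all were lower by that rule), and the median was -0.25.

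PM1 had signals of 496, 975 and 2017 in nontransgenic and 323, 267 and 2487 in antisense leaves, and rose by 2.44 ± 0.44 at 3 h (limma adjusted p = 0.0292). SGR, the stay-green gene, which starts chlorophyll breakdown, went from 2009 to 1105 and then 4833 in nontransgenic leaves, and from 1302 to 1146 and 3436 in antisense leaves. It rose by 1.32 ± 0.18 at 3 h (adjusted p = 0.0134), after values below the start at 20 min in both genotypes. RAB21 rose by 1.56 ± 0.30 (adjusted p = 0.0356) and RCCR1, the red chlorophyll catabolite reductase gene, by 0.97 ± 0.14 (adjusted p = 0.0161). LEA3 had 3089, 4498 and 12091 in nontransgenic and 6581, 2432 and 17920 in antisense leaves, a change of 1.70 that did not pass (adjusted p = 0.0668). The design suffix of the probe sets of LEA3 and SGR allows for related transcripts, so their signals may hold more than 1 gene.

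On the arrays at 3 h, PM1 and LEA3 were higher in antisense than in nontransgenic leaves, by log2 differences of 0.30 and 0.57. Before treatment the genes went opposite ways, at -0.59 for PM1 and 1.09 for LEA3, the largest difference of LEA3. Their genotype differences over the stages did not pass the limma fit (PM1 -0.70 ± 0.36, adjusted p = 0.222; LEA3 0.26 ± 0.34, adjusted p = 0.643). At 20 min, though, both were lower in antisense leaves, at -1.81 for PM1 and -0.88 for LEA3. Of the 8 genes NOL, which encodes a chlorophyll b reductase, was called between the genotypes, higher at 0.57 ± 0.16 (adjusted p = 0.0489), where 9.94% of all probe sets were called higher. The count of 4 at 3 h dropped to 2 on leaving out either the nontransgenic array before treatment or the antisense array at 3 h. It was 2 with no filter on low signals, 0 on leaving out the antisense array before treatment, and 0 without limma's variance trend, where no probe set at all was called.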

How the data were processed

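The authors deposited 1 log2 signal for each probe set and array; MAS5 is named in the submitters' processing notes, and its version is not given in the sources used here. The 2% trimmed mean of the linear signal was 499.9 on each array, tested on the values. The number of arrays, 6, limits the precision. Probe sets were named through the platform annotation (22436 with 1 gene, 95 with several, none named from the latter) and a RefSeq gene table, which held all 22436. No sequences are shown. Here the log was undone, 16 added, and log2 applied anew. Probe sets with a mean below the median of all (5.53) were left out, keeping 28629.

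The members were part of the fit over all probe sets, but their p-values are not used. For other genes, limma 3.58.1 in R 4.3.3 (lmFit, then eBayes with its variance trend) estimated genotype and stage as additive terms, adjusted by Benjamini-Hochberg over all probe sets, threshold 0.05, with 2 residual degrees of freedom; it was tested on simulated data. 1 probe set stood for each gene, the brightest. Other NAC genes past the filter were named, with the 5 named genes most correlated with each member over the 6 arrays. Linked genes and markers came from written lists. Members and lists were chosen with earlier results of these data known. The name GS2, shared by 2 genes, was read through GLN2. Alternatives were offsets of 1 and 64, quantile, 75th percentile and spike-in scaling, no filter, no trend, the mean over probe sets, a 2-fold rule and leaving out each array.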

Additional observations from a re-analysis of the deposited data

Results flagged for a closer look

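ONAC067 moved in opposite directions in the 2 genotypes at both times in NaCl. The antisense change exceeded the nontransgenic one by 0.77 on the log2 scale at 20 min and by 0.45 at 3 h. ONAC068 did so at 3 h, with an antisense change larger by 0.43. None of these differences was tested, since each group is 1 array, and the single changes of ONAC067 at 3 h in antisense leaves (0.02) and at 20 min in nontransgenic leaves (-0.11) were near 0. No group had enough arrays to look for a single array far from the others.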

How the results depend on the processing

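No paired analysis was possible because each group holds 1 array and the labels number no replicates. The mean change of ONAC068 at 3 h (0.017) was -0.031 with quantile normalization, -0.048 with equal 75th percentiles and -0.034 with scaling to the spike-ins, and its genotype difference (0.08) was -0.0090 with the spike-ins; the cause was not tested. The change of ONAC004 at 20 min was 0.64 with 64 added. For NAC45 the change at 20 min was 0.46 with 1 added, 0.31 with 64 added and 0.35 with equal 75th percentiles, and the genotype difference was -3.98 with 1 added and -3.07 with 64 added; a larger added number shrinks the differences of low signals by construction. Each member has 1 probe set, so no other probe set could be tried. Other mean changes and mean genotype differences of the members moved by less than the SD over the pairs of arrays.

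Of the NAC genes other than the members, 0 were called at 20 min and 0 by genotype under all 15 alternatives. At 3 h the count was 1 (ONAC048) with 64 added or quantile normalization. It was 0 with 1 added, equal 75th percentiles, spike-in scaling, no filter, no variance trend, the mean over probe sets or the 2-fold rule, and between 0 and 0 with each array left out; the cause was not tested. Without limma's variance trend 0 probe sets were called at either time in NaCl. The count of linked genes called higher at 3 h (4), an alternative chosen after seeing the data, lay between 0 and 6. Scaling moved the median of all probe sets by less than 0.1.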

Other observations

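Other probe sets of the wider family did not all repeat the brightest one. For ONAC071, a second probe set had signals of 288, 323 and 447 in nontransgenic and 174, 269 and 227 in antisense leaves, and a mean genotype difference of -0.62 against 0.18 on the brightest. On the third probe set the mean was -0.42. For ONAC048, both other probe sets were below the filter, with signals of 1.37 to 64.3, so the values of this gene rest on 1 probe set. ONAC074, a NAC gene also called OsNTL3, was read only by probe sets shared with a second gene. On the brighter of these the signal was 7499, 9880 and 5343 in nontransgenic and 5821, 7369 and 5078 in antisense leaves, highest at 20 min in both genotypes. On the other it was 694, 494 and 632 in nontransgenic and 827, 542 and 579 in antisense leaves, lowest at 20 min in both, and neither signal can be split between the 2 genes.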
